A study of Mus musculus with 9 samples.

Results

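Rag1 and Rag2 lie next to each other on mouse chromosome 2 and are read towards each other. On their distal side lie 7 genes, Traf6, Pdhx, Elf5, Fbxo3, Cd59b, Cd59a and Prrg4, which were described with them, making 9 genes of the 55342 names in the files. They were named for lying within 5 Mb of the Rag pair and for their measured differences between the strains, so their values below are a description and carry no test. Bulk RNA sequencing of polyadenylated transcripts was carried out on 9 biopsies of labial mucosa from mice, with 3 libraries for each of the strains B6, Tac111 and Tac146. The protocol says that the mice carried different mutations and had been infected before the biopsy. Neither the mutations nor the infecting agent, age or sex could be taken from the labels. Those labels assign the B6 libraries to ILC1 cells, a type of innate lymphoid cell, and the Tac111 and Tac146 libraries to T cells. Strain and labelled cell type therefore cannot be told apart in the comparisons with B6.

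RAG1 and RAG2 form the recombinase that cuts DNA at the V, D and J segments of antigen receptor genes in developing T and B cells, and the genes of the pair are normally transcribed together in those cells and silent elsewhere. The neighbours belong to other pathways: TRAF6 relays signals from Toll-like and interleukin-1 receptors, PDHX holds together the pyruvate dehydrogenase complex, and ELF5 is a transcription factor of glandular epithelium. FBXO3 selects substrates of an SCF ubiquitin ligase, the products of the Cd59 genes keep the complement membrane attack complex from forming on the cell surface, and PRRG4 is a transmembrane protein with a vitamin K-dependent Gla domain.

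Total expected counts ran from 27192359 to 46456500 per library. Against the labels, squamous keratinocyte markers took 6.09 to 10.1% of the counts and skeletal muscle markers 1.76 to 3.21%. The 13 T cell markers had summed levels, as CPM (counts brought to the same TMM-scaled library size), of 22.9 to 28.3 in B6, 16.6 to 19.5 in the Tac111 libraries and 17.8 to 19.6 in those of Tac146. Most of that sum was Cd5, at 8.36, 8.86 and 8.23 CPM in B6, Tac111 and Tac146, and Trbc2, at 6.42, 6.71 and 5.97 CPM. Cd3d, Cd3e, Cd3g, Cd8a and Cd8b1 were at 0 counts in Tac111. In Tac146, Cd3d, Cd3e and Cd3g had 3, 21 and 60 counts summed over the libraries, and Cd8b1 was at 0. In B6 the same 3 Cd3 genes had 83, 135 and 231. The 13 ILC1 and natural killer cell markers took 23.8 to 29.95, 6.37 to 8.85 and 25.8 to 32.1 CPM in the same order, and 8 of them, Ncr1 and Gzmb included, were at 0 in Tac111. Tac146 replicate 4 stood apart with the lowest share of muscle transcripts, 1.76%, against 2.53% or more in the other 8 libraries. In bulk tissue, fewer cells of a type and less RNA per cell cannot be told apart.

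The sequences just upstream of the Rag pair are shown because each gene was read in 1 strain and near 0 in the others. In GRCm38 (RefSeq, release p6), the 250 bases before the start of Rag2 are chr2:101624462-101624711 on the plus strand and those before Rag1 are chr2:101649533-101649782 on the minus strand. Both stretches end at the RefSeq starts of the genes, which lie slightly upstream of the GENCODE starts given below. The stretch before Rag1 directly adjoins the start of B230118H07Rik on the same strand. Each is written 5′ to 3′ along its gene, and capitals mark a CCAAT box, found once, reading on the opposite strand, before Rag1.
Rag2 upstream: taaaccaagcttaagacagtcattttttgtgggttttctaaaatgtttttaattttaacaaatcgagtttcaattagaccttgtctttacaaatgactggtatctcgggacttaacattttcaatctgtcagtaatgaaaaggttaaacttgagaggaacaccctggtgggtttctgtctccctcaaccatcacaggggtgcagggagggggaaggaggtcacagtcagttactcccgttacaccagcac
Rag1 upstream: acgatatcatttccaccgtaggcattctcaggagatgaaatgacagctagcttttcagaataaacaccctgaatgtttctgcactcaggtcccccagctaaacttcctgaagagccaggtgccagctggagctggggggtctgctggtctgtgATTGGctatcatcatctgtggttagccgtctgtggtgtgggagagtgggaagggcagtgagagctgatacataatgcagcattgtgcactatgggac
Neither stretch held TATAAA or GGGCGG on either strand, and the stretch before Rag2 held no CCAAT. Among the same 250 bases of 32851 mouse promoters, 12.4% held TATAAA, 33.8% CCAAT and 32.7% GGGCGG, and these letters do not overlap one another. The GC content was 41.2% before Rag2 and 50.8% before Rag1, against a median of 52.4% over all promoters.

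Rag2 (chr2:101624718-101632529, plus strand, GRCm38), which encodes the recombinase subunit that reads histone marks, was counted in Tac111 alone. It had 51, 47 and 75 counts in Tac111 replicates 1, 2 and 3, or 1.63, 1.70 and 2.18 CPM. All 3 B6 libraries and all 3 Tac146 libraries held 0. The Tac111 mean was 1.84 ± 0.299 CPM (SD, n = 3). The 173 counts pooled over Tac111, set against a floor of 3 counts over each other strain and scaled by the pooled library sizes, exceeded B6 at least 62.3-fold and Tac146 at least 76.1-fold. A count of 0 allows up to 0.0298 CPM in B6 and 0.0244 CPM in Tac146, for counting error only.

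Rag1 (chr2:101638282-101649501, minus strand), which encodes the subunit that carries the cutting activity, was counted in Tac146. Its counts were 71, 59 and 75 in Tac146 replicates 2, 3 and 4, and 1, 0 and 2 in B6. Tac111 replicates 1, 2 and 3 held 3, 0 and 1. The Tac146 level of 1.68 ± 0.123 CPM (SD, n = 3) lay far above every library of the other strains. Pooled counts gave a ratio to B6 of 56.0 (95% exact counting interval 18.9 to 274) and a ratio to Tac111 of 38.8 (14.9 to 144). Because they rest on 3 and 4 counts, the log2 ratio of means to B6, 5.80, became 7.14 without B6 replicate 3 and 5.22 without B6 replicate 2. The log2 ratio of Tac111 to Tac146, -5.33, became -6.85 without Tac111 replicate 1 and -4.74 without Tac111 replicate 2. Between Tac111 and B6 the pooled ratio was 1.44 with an interval of 0.244 to 9.84, a difference not detectable at this depth.

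No library thus held counts of both genes above a few. A count per gene does not show which exons the reads come from, so in mice said to carry mutations these values do not show whether whole Rag1 or Rag2 transcripts were present. Per kilobase of exon, Rag2 in Tac111 stood at 0.537 CPM per kb and Rag1 in Tac146 at 0.254 CPM per kb. Among markers of cells that rearrange receptor genes, 3 specific to precursors had few counts. Dntt, which adds bases at receptor joints, had 0, 1 and 0 counts summed over the B6, Tac111 and Tac146 libraries. Vpreb1, a surrogate light chain gene of B cell precursors, had 11, 10 and 10, and its partner Igll1 had 7, 8 and 9. The whole list of 12 B lineage and precursor markers took 20.4 to 25.3 CPM in the B6 libraries, 15.5 to 16.1 in those of Tac111 and 13.3 to 21.8 in those of Tac146. Most of that sum was Ebf1, a B lineage factor that stromal cells also express, at 11.5, 7.88 and 9.57 CPM in B6, Tac111 and Tac146, and the heavy chain gene Ighm, at 9.93, 7.39 and 8.19 CPM. The part of such cells in the Rag values was not tested. The gene B230118H07Rik (chr2:101560781-101649532, minus strand) spans both Rag genes, on the strand of Rag1 and opposite Rag2. It stood at 18.0 ± 1.54, 22.4 ± 4.58 and 16.6 ± 2.70 CPM in B6, Tac111 and Tac146 (SD, n = 3) and was not called in any comparison (edgeR adjusted p = 0.264, 0.872 and 0.0937 for Tac111 against B6, Tac146 against B6 and Tac111 against Tac146). Of the 6559 stretches of 50 bases in Rag1 transcripts, 33 (0.503%) also occur in its transcripts, and none of the 3422 of Rag2 do. How the counting split reads there is not stated in the labels or file headers.

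**Figure D1:**
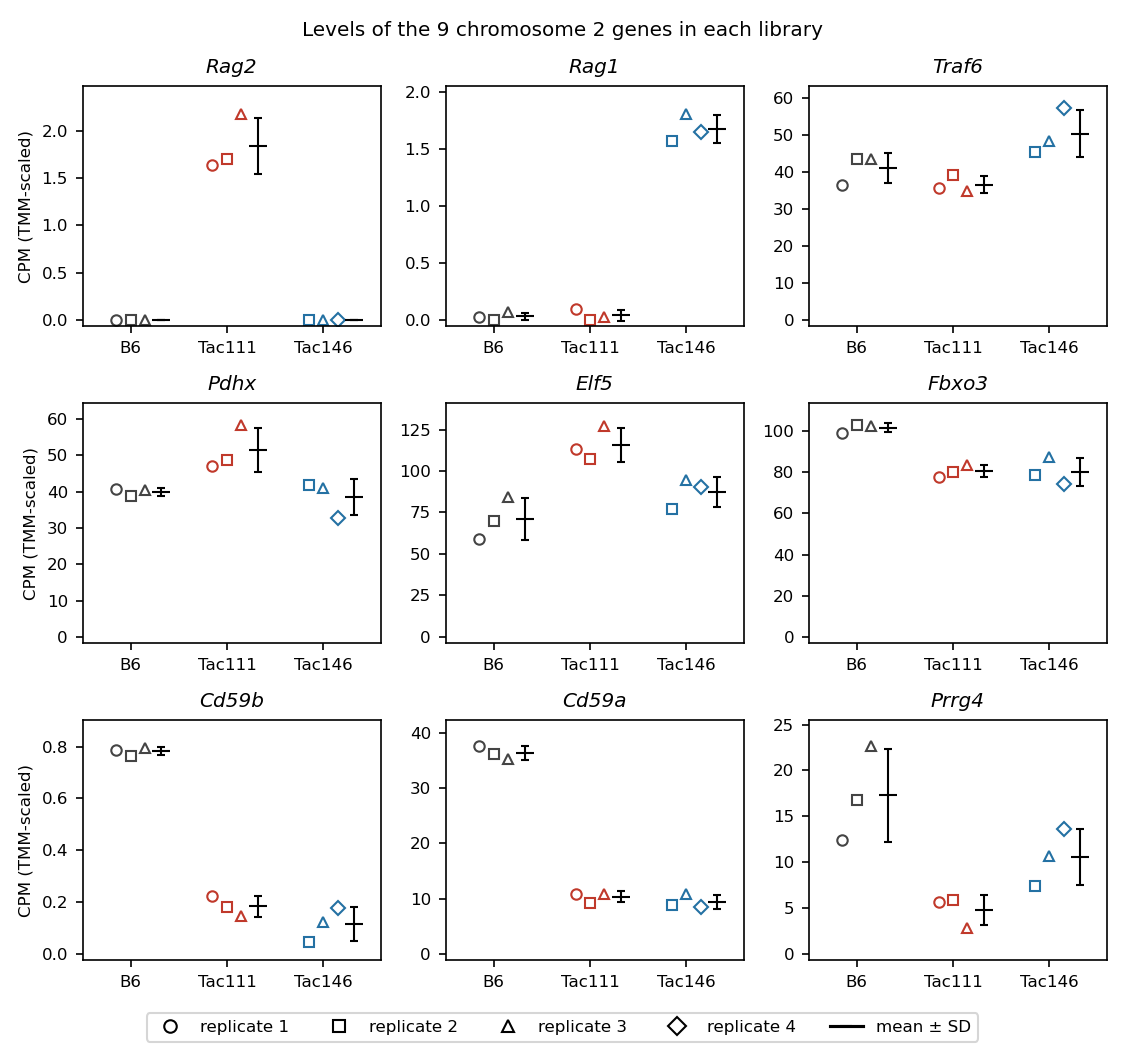
Level of each of the 9 genes in every library, as CPM scaled by TMM factors on a linear axis from 0. Symbols are replicates, and the bar beside each strain is the mean ± SD of 3 libraries. Rag2 is above 0 in Tac111 only, Rag1 stands at 1.57 to 1.81 CPM in Tac146, and Cd59a and Cd59b are highest in B6.

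Both Cd59 genes on the distal side, tandem copies that encode a lipid-anchored inhibitor of the membrane attack complex, stood highest in B6. Cd59a (chr2:104095801-104115354, plus strand) is the widely expressed copy. It stood at 37.7, 36.1 and 35.3 CPM in B6 replicates 1, 2 and 3. In Tac111 replicates 1, 2 and 3 it stood at 10.9, 9.25 and 10.9 CPM, and in Tac146 replicates 2, 3 and 4 at 8.80, 10.8 and 8.49 CPM. Every B6 library was thus above every library of the other strains, which overlapped each other. The means of 36.4 ± 1.22, 10.4 ± 0.964 and 9.37 ± 1.26 CPM (SD, n = 3) put Cd59a 3.51-fold lower in Tac111 and 3.88-fold lower in Tac146 than in B6. The B6 libraries are shared by both of these ratios.

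Cd59b (chr2:104069849-104091187, plus strand), the copy known chiefly from testis, lies just before Cd59a and had few counts. B6 libraries held 33, 22 and 24 counts, those of Tac111 7, 5 and 5, and those of Tac146 2, 4 and 8. The B6 libraries were again above all others. Means were 0.783 ± 0.0155 CPM in B6, 0.183 ± 0.0396 for Tac111 and 0.114 ± 0.0665 for Tac146 (SD, n = 3), with log2 ratios to B6 of -2.09 and -2.77. The latter was -3.23 without Tac146 replicate 4 and -2.39 without Tac146 replicate 2.

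The coding starts of the Cd59 genes are shown because copies this alike can share reads. The first 150 coding bases of each follow, from the GRCm38 annotation, with capitals at bases that differ or have no partner in an alignment of the coding sequences (372 bases in Cd59a, 390 in Cd59b).
Cd59a coding start: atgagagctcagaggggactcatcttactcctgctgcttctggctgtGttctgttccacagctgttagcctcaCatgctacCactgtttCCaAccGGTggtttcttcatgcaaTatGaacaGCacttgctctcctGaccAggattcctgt
Cd59b coding start: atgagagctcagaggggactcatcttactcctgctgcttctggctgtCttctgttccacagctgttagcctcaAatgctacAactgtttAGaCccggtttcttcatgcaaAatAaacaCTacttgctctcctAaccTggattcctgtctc
Over 405 aligned columns, 304 (75.1%) were identical, and the longest shared run in the transcripts was 104 bases. Of the 50-base stretches, 70 of 1811 (3.87%) in Cd59a and 70 of 1316 (5.32%) in Cd59b occurred in the other gene. Cd59b made up 2.05, 2.08 and 2.20% of the counts of the pair in B6, 2.01, 1.92 and 1.32% in Tac111, and 0.5, 1.12 and 2.04% in Tac146. Its value is therefore uncertain, since reads of Cd59a assigned to it could follow Cd59a, which was not tested. The summed T cell markers given above, mostly Cd5 and Trbc2, were also higher in B6 than in the other strains. Summed ILC1 and natural killer cell markers were lower in Tac111 than in B6, while those of Tac146 overlapped B6. The part of both marker sets in the Cd59 values was not tested.

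Prrg4 (chr2:104830741-104849876, minus strand), the most distal of the 9 genes, had the highest coefficient of variation within a strain (29.1 to 34.6%) among those above 1 CPM in every strain. It stood at 12.5, 16.8 and 22.6 CPM in B6, 5.64, 5.85 and 2.88 in Tac111, and 7.43, 10.7 and 13.6 in Tac146. Tac111 libraries were below all others, while those of B6 and Tac146 overlapped. The means of 17.3 ± 5.10, 4.79 ± 1.66 and 10.6 ± 3.08 CPM (SD, n = 3) gave log2 ratios of -1.85 for Tac111 against B6, -0.71 for Tac146 against B6 and -1.14 for Tac111 against Tac146.

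Fbxo3 (chr2:104027721-104063240, plus strand), the substrate receptor gene just before the Cd59 pair, had a narrow spread. Its levels were 99.0, 103 and 103 CPM in B6, 77.8, 80.2 and 83.5 in Tac111, and 78.6, 87.6 and 74.5 in Tac146. All B6 libraries lay above the rest, and Tac111 and Tac146 overlapped. The log2 ratios to B6 were -0.34 in Tac111 and -0.34 in Tac146. Genes 4931422A03Rik and Gm24644 overlap Fbxo3 in position and had 0 counts in all libraries.

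Elf5 (chr2:103411688-103450989, plus strand) and Pdhx (chr2:103021075-103073513, minus strand) were highest in Tac111. Elf5 stood at 59.0, 69.9 and 84.1 CPM in B6, 113, 107 and 127 in Tac111, and 76.8, 94.5 and 90.6 in Tac146. Tac111 lay above both other strains, which overlapped, and the log2 ratio to B6 was 0.71 and to Tac146 0.41. Pdhx stood at 40.8, 38.7 and 40.4 CPM in B6, 47.2, 48.6 and 58.3 in Tac111, and 41.9, 41.0 and 32.8 in Tac146. Tac111 was above all other libraries by a small margin, with a log2 ratio of 0.36 to B6 and 0.41 to Tac146. The log2 ratio of Pdhx in Tac146 to B6, -0.05, was 0.05 without Tac146 replicate 4.

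The summed level of the 15 gland markers was, like Elf5, highest in Tac111, with overlap between Tac111 and Tac146 and between Tac146 and B6. It was 96.5 to 104 CPM across B6, 109 to 130 across Tac111 and 101 to 113 across Tac146 libraries, and most of that was Slc12a2, which other epithelia also express and which stood at 79.1, 75.1 and 80.2 CPM, lowest in Tac111. Aqp5, a water channel of salivary acini, stood at 5.48, 21.1 and 1.57 CPM on average in B6, Tac111 and Tac146, and Lpo, a secreted peroxidase, at 0.565, 0.176 and 6.77. Smgc, Bpifb2 and Dcpp1, genes of salivary secretion, were at 0 counts in all 9 libraries. The part of gland tissue in the Elf5 values was not tested.

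Traf6 (chr2:101678429-101701669, plus strand), the nearest tested gene beyond the Rag pair at 0.029 Mb, was highest in Tac146. It stood at 36.5, 43.4 and 43.6 CPM in B6, 35.6, 39.2 and 34.9 in Tac111, and 45.3, 48.3 and 57.3 in Tac146. Tac146 was above all other libraries, and B6 and Tac111 overlapped. Mean levels were 41.1 ± 4.06, 36.6 ± 2.31 and 50.3 ± 6.25 CPM (SD, n = 3). The log2 ratio of Tac146 to B6 was 0.29, or 0.19 without Tac146 replicate 4, and that of Tac111 to Tac146 was -0.46.

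**Figure D2:**
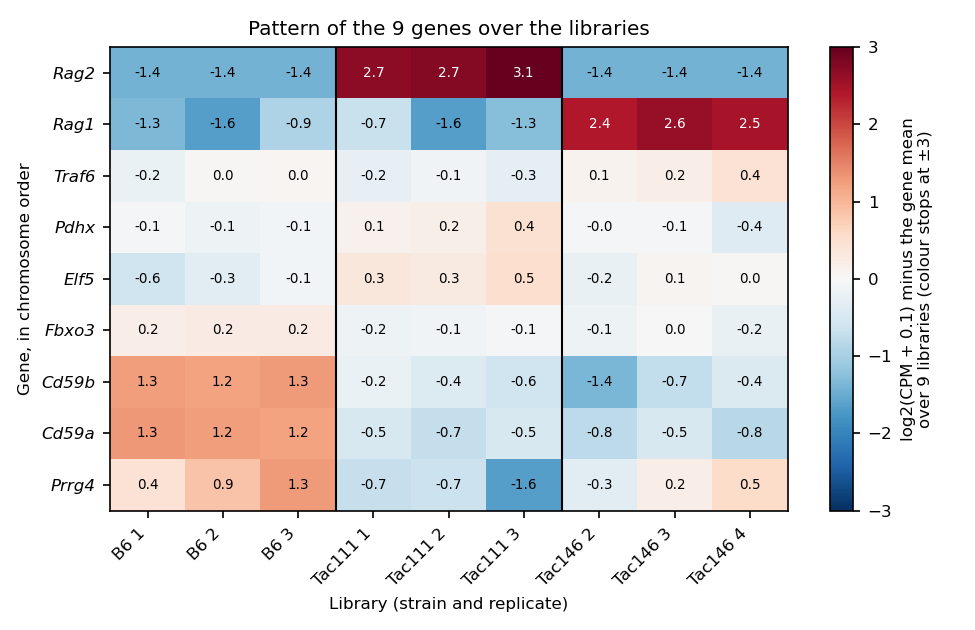
Pattern of the 9 genes over the 9 libraries, as log2(CPM + 0.1) minus the mean of the gene over all libraries, with genes in chromosome order in rows and libraries in columns. Red cells are above and blue cells below the mean of the gene. Rag2 is red in Tac111, Rag1 in Tac146, and both Cd59 genes in B6.

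Relative to exon length, Cd59a was the highest of the 9 genes in B6, at 20.1 CPM per kb, ahead of Fbxo3 at 14.0, Elf5 at 12.1 and Pdhx at 10.2. Elf5 overlapped both Fbxo3 and Pdhx there, and Prrg4 (5.46) overlapped Traf6 (5.22). In Tac111 the order was Elf5 at 19.7 CPM per kb, Pdhx at 13.1, Fbxo3 at 11.1, Cd59a at 5.72, Traf6 at 4.64 and Prrg4 at 1.51, with no overlap between neighbours in that order. In Tac146 it was Elf5 at 14.9, Fbxo3 at 11.1, Pdhx at 9.81, Traf6 at 6.39, Cd59a at 5.17 and Prrg4 at 3.34. Fbxo3 overlapped Pdhx, and Traf6 overlapped Cd59a, in that strain.

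All 9 genes passed the filter on low counts, Rag1 and Rag2 through the strain in which each was high. In Tac111 against B6, edgeR called 6 of the 9 genes at an adjusted p below 0.05, where it called 3.81% of the 16523 genes tested. The libraries of both strains did not overlap for 7 of 9, against 29.6% of all genes. In Tac146 against B6, 3 of 9 were called beside a background of 0.303%, and 5 of 9 did not overlap beside 12.7%. In Tac111 against Tac146, 5 of 9 were called beside 8.89%, and 6 of 9 did not overlap beside 35.5%. Since the genes were chosen on these contrasts, nothing is read from these counts.

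The other genes of the region could be tested, though they are what was left after the 9 had been picked for their differences. Of 127 annotated genes within 5 Mb of the Rag pair, 39 were tested, the 9 and 30 others. All 39 lay at the pair or on its distal side. On the proximal side, towards the centromere, 21 genes were annotated, 3 of them protein coding, and none passed the filter, with no more than 8 counts in any library. The nearest tested genes on that side were Api5 at -7.19 Mb (negative distances run towards the centromere), 2810002D19Rik, Ttc17 and Itpa-ps1.

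Among the 30 other genes, 1 was called in Tac111 against B6 (3.33%). D430041D05Rik (chr2:104143073-104411013, minus strand) lies just beyond Cd59a and had 1.29, 1.88 and 1.52 CPM in B6, 0.577, 0.614 and 0.640 in Tac111, and 0.841, 0.983 and 1.39 in Tac146. It fell (Tac111 against B6: log2 fold change -1.34 with an SE of 0.27, edgeR adjusted p = 0.0203, alternatives 0.00311 to 0.0851). The call was lost without B6 replicate 2 or 3, or without any 1 of the Tac111 libraries. DESeq2 called 5 of the 30, adding Ldlrad3, Pamr1, Cat and Hipk3, all lower in Tac111. Of the 16523 genes tested, DESeq2 called 1213 in Tac111 against B6, 136 in Tac146 against B6 and 2677 in Tac111 against Tac146. Of the 30, 14 had an unadjusted edgeR p under 0.05. No share over all genes was taken for unadjusted p, here or below, so nothing is read from such counts. The median size of the log2 fold change was 0.28 over the 30 genes and 0.19 over all genes tested.

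In the other comparisons edgeR called 0 of the 30. In Tac146 against B6, DESeq2 also called 0, and 3 had an unadjusted edgeR p under 0.05. In Tac111 against Tac146, DESeq2 called 4, Cd44, Hipk3, Immp1l and Trim44, and 12 had an unadjusted edgeR p under 0.05. The median size of the log2 fold change of the 30 was 0.09 in Tac146 against B6 (0.12 over all genes) and 0.25 in Tac111 against Tac146 (0.23 over all genes). Libraries did not overlap for 12, 5 and 14 of the 30 in the order Tac111 against B6, Tac146 against B6 and Tac111 against Tac146, or 40.0, 16.7 and 46.7%, beside the shares over all genes given above.

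The 3 tested genes next to Traf6 on the distal side were not called in the main edgeR fit. Prr5l, which encodes a partner of the mTORC2 kinase complex, stood at 9.24 ± 2.11, 9.50 ± 1.26 and 9.55 ± 1.36 CPM in B6, Tac111 and Tac146 (SD, n = 3). Its edgeR adjusted p was 0.906 for Tac111 against B6, 0.959 for Tac146 against B6 and 0.983 for Tac111 against Tac146. Commd9 stood at 26.1 ± 4.15, 32.4 ± 5.002 and 25.9 ± 1.17 CPM and Ldlrad3 at 45.3 ± 4.44, 33.5 ± 3.08 and 41.0 ± 5.996 CPM. The main edgeR fit called neither, while DESeq2 called Ldlrad3 in Tac111 against B6 as given above. There edgeR also called Ldlrad3 with no filter on low counts (adjusted p = 0.0414), with only the 6 libraries (0.0419) and without Tac146 replicate 2 (0.0460). Without Tac146 replicate 2, edgeR called Ldlrad3 in Tac111 against Tac146 as well (adjusted p = 0.0499). Ehf, an ETS factor gene between Pdhx and Elf5, was not called in the main fit either (log2 fold change -0.35 and -0.56 for Tac111 against B6 and against Tac146, edgeR adjusted p = 0.343 and 0.109). Against Tac146, edgeR called Ehf with no filter (adjusted p = 0.0384) and without Tac146 replicate 2 (0.0374).

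Beyond 5 Mb, the nearest called genes in Tac111 against B6 were 2810002D19Rik at -7.21 Mb and Ano3 at 9.01 Mb. Ano3, of the anoctamin family, had 0.907, 0.626 and 0.795 CPM in B6, 3.56, 2.82 and 2.82 in Tac111, and 0.686, 0.921 and 0.992 in Tac146. Ano3 rose from B6 to Tac111 by a log2 fold change of 1.96 (SE 0.23; edgeR adjusted p = 0.00113, alternatives 1.58e-09 to 0.00760) and was higher than in Tac146 by 1.82 in log2 units (SE 0.22; edgeR adjusted p = 0.00115, alternatives 3.81e-09 to 0.00817). 2810002D19Rik fell from 2.59 ± 0.338 to 1.33 ± 0.273 CPM (edgeR adjusted p = 0.0277, alternatives 0.00441 to 0.117), and the call was lost without any 1 of the B6 libraries or without Tac111 replicate 2 or 3. Its level in Tac146 was 1.35 ± 0.145 CPM (edgeR adjusted p = 0.160 against B6).

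In Tac146 against B6 the nearest called genes on the chromosome were far from the Rag pair. Osbpl6, at -25.02 Mb, had a log2 fold change of -1.39 (SE 0.16; edgeR adjusted p = 0.00467, alternatives 7.11e-12 to 0.0412). Atp5e, which encodes a subunit of the mitochondrial ATP synthase, lies 72.8 Mb distal and stood at 222 ± 31.5 CPM in B6 and 31.8 ± 3.06 in Tac146 (log2 fold change -2.80, SE 0.17, edgeR adjusted p = 3.05e-05, alternatives 6.77e-61 to 0.000463). In Tac111 against Tac146 the nearest called gene proximally was Slc35c1 (edgeR adjusted p = 0.0415, alternatives 0.0115 to 0.203), which lost the call in 12 of 16 alternatives.

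**Figure D3:**
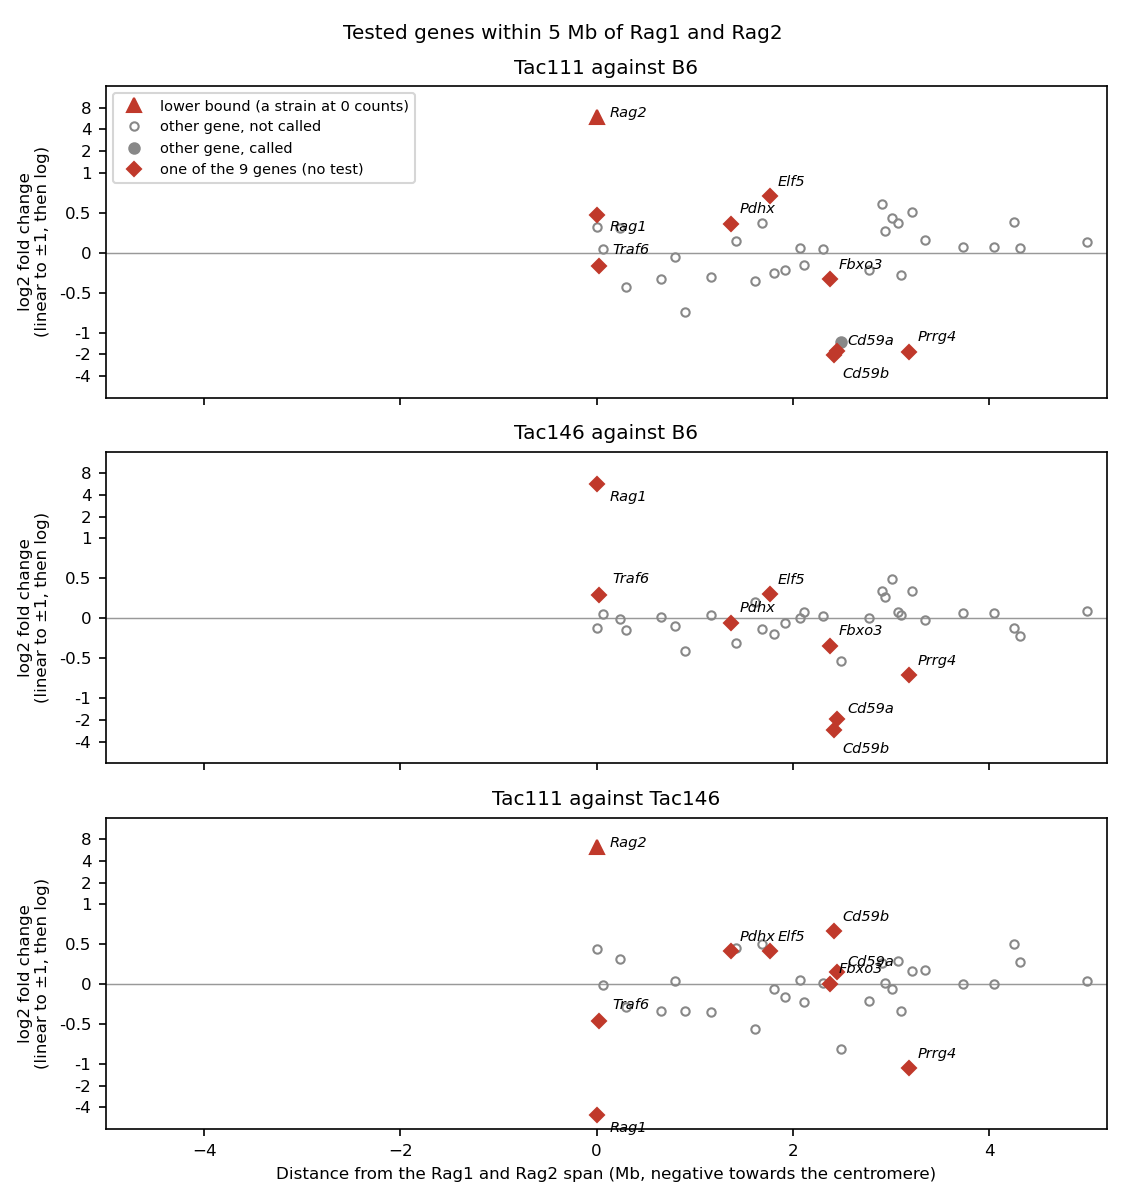
Log2 fold change (linear to ±1, then log-spaced) of the tested genes within 5 Mb of Rag1 and Rag2 against distance from the pair in Mb, 1 panel per comparison. Red diamonds are the 9 genes except Rag2, as edgeR log2 fold changes shown without a test, and circles are the 30 other genes, filled where edgeR called them. The triangle is a lower bound for Rag2, which is not drawn in Tac146 against B6, where both strains held 0 counts. No gene was tested on the proximal side, and D430041D05Rik is the only filled circle.

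Genes that work with the products of the 9 genes, or belong to their families, were tested as 7 lists, 109 genes of which 102 passed the filter. In Tac111 against B6, edgeR called 5 of the 102, all lower (4.90%), where it called 168 genes higher and 462 lower overall. In Tac146 against B6 it called 0, with 10 below 0.05 before adjustment and 1 called by DESeq2. In Tac111 against Tac146 it called 12, of which 11 were lower and 1 higher (11.8%), where 433 genes were higher and 1036 lower overall.

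Of the 17 tested V(D)J recombination and end joining genes, edgeR called Polm in Tac111 against B6 (5.88%, beside 3.81% of all genes) and Polm and Atm in Tac111 against Tac146 (11.8%, beside 8.89%). Before adjustment 5 and 6 were below 0.05, and DESeq2 called Polm, Atm and Hmgb2 in the first and Polm and Atm in the second. Polm, a polymerase that fills gaps at receptor joints, stood at 10.3 ± 0.275, 6.79 ± 0.788 and 11.5 ± 0.332 CPM in B6, Tac111 and Tac146 (SD, n = 3). From B6 to Tac111 it fell, with a log2 fold change of -0.60 (SE 0.11; edgeR adjusted p = 0.0130, alternatives 0.000167 to 0.0577), a call lost without B6 replicate 3 or Tac111 replicate 2. It was also lower than in Tac146 by 0.76 (log2 fold change -0.76, SE 0.11, edgeR adjusted p = 0.00288, alternatives 2.1e-07 to 0.0175). Atm, the kinase that senses double-strand breaks, was lower in Tac111 than in Tac146 (log2 fold change -0.68, edgeR adjusted p = 0.0477), and 11 of 16 alternatives, every B6 or Tac146 library left out among them, lost the call. The subunits of the joining machinery, Xrcc5, Xrcc6, Prkdc, Lig4 and Xrcc4, were called neither by edgeR nor by DESeq2 in any comparison. The median log2 fold change of the list was 0.02, -0.01 and 0.07 in the comparisons Tac111 against B6, Tac146 against B6 and Tac111 against Tac146.

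Of 25 tested TRAF6 signalling genes, edgeR called 1 in Tac111 against B6 (4%, beside 3.81% of all genes) and 3 in Tac111 against Tac146 (12%, beside 8.89%), all lower. DESeq2 called 2 and 6, beside 1213 and 2677 of the 16523 genes tested, and 5 and 9 had an unadjusted edgeR p under 0.05. Irak2, a kinase upstream of TRAF6, stood at 27.5 ± 3.16, 19.8 ± 1.53 and 27.8 ± 2.15 CPM in B6, Tac111 and Tac146 (SD, n = 3; edgeR adjusted p = 0.0372 against B6, alternatives 0.00441 to 0.147, and 0.0248 against Tac146, alternatives 0.00184 to 0.0811). Myd88, the adaptor of Toll-like receptors, was lower in Tac111 than in Tac146 by 0.49 (log2 fold change -0.49, edgeR adjusted p = 0.0160, alternatives 0.000341 to 0.0730). Tnfaip3, an editor of ubiquitin chains that dampens the pathway, had a log2 fold change of -0.54 (edgeR adjusted p = 0.0358, alternatives 0.00473 to 0.127). The call of Irak2 against B6 was lost without B6 replicate 2 or 3, any 1 Tac111 library or Tac146 replicate 3, and against Tac146 without Tac111 replicate 1 or 2 or Tac146 replicate 3 or 4. That of Myd88 was lost without Tac111 replicate 2 or Tac146 replicate 3, and that of Tnfaip3 without B6 replicate 2 or 3, Tac111 replicate 1 or 3, or Tac146 replicate 3 or 4, or with only the 6 libraries of the comparison. With replicate number as a block, all 3 calls against Tac146 were lost as well.

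Among 8 tested ETS factors of epithelium and lymphocytes, the family of Elf5, 2 fell in Tac111 against B6 (25%, beside 3.81% of all genes) and 5 were lower in Tac111 than in Tac146 (62.5%, beside 8.89%) by edgeR. DESeq2 called 2 and 6, beside 1213 and 2677 of the 16523 genes tested. In Tac111 against Tac146, Elf5 itself had a log2 ratio of 0.41. Elf4 stood at 16.4 ± 1.27, 10.8 ± 0.764 and 16.1 ± 0.864 CPM in B6, Tac111 and Tac146 (SD, n = 3), with log2 fold changes of -0.60 against B6 (SE 0.10, edgeR adjusted p = 0.00790, alternatives 2.32e-05 to 0.0375) and -0.58 against Tac146 (SE 0.10, edgeR adjusted p = 0.00755, alternatives 3.85e-05 to 0.0515). Spdef, a factor of secretory cells, stood at 1.03 ± 0.269 CPM in Tac111 and 2.90 ± 0.329 in Tac146 (log2 fold change -1.47, SE 0.26, edgeR adjusted p = 0.00907, alternatives 2.29e-05 to 0.0394). Elf3, an epithelial factor, stood at 11.9 ± 0.171 CPM in Tac111 and 23.1 ± 5.02 in Tac146 (log2 fold change -0.95, edgeR adjusted p = 0.0323, alternatives 0.00107 to 0.1), and lost the call without any 1 of the Tac111 libraries or Tac146 replicate 3 or 4. Ets1, abundant in lymphocytes, fell against B6 (log2 fold change -0.68, edgeR adjusted p = 0.0233, alternatives 0.000532 to 0.102; lost without B6 replicate 2 or 3 or Tac111 replicate 1 or 3). Against Tac146 it was lower by a log2 fold change of -0.60 (edgeR adjusted p = 0.0292, alternatives 0.00213 to 0.0817), a call lost without Tac111 replicate 1 or 3 or any 1 Tac146 library, or with only the 6 libraries. The fifth, Elf1, had a log2 fold change of -0.44 and is named because it completes the count. With replicate number as a block, the calls of Elf4, Elf3, Ets1 and Elf1 against Tac146 were lost as well. The summed ILC1 and natural killer cell markers given above were lower in Tac111 than in both other strains. The summed T cell markers, mostly Cd5 and Trbc2, were lower than in B6 but overlapped Tac146. Among them, Cd3d, Cd3e and Cd3g were at 0 counts in Tac111 alone. The part of both marker sets in these values was not tested.

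EdgeR called 3 genes of the remaining lists. None of the 10 tested complement genes was called by edgeR in any comparison, with 2, 2 and 1 below 0.05 before adjustment and 0 for DESeq2. Both Cd59 genes stood lower in Tac111 and Tac146 than in B6, but they were picked for such differences, so nothing is read from the contrast. None of the 20 SCF genes was called by edgeR, with 1, 0 and 2 below 0.05 before adjustment and 0 for DESeq2. Of 16 pyruvate dehydrogenase genes, Dld, the dehydrogenase subunit that PDHX anchors, stood at 188 ± 18.0 CPM in Tac111 and 142 ± 12.8 in Tac146 (SD, n = 3; log2 fold change 0.40, edgeR adjusted p = 0.0359, alternatives 0.00394 to 0.164). The call was lost without B6 replicate 2 or 3, any 1 Tac111 library, or Tac146 replicate 3 or 4. It was also lost with only the 6 libraries or with replicate number as a block. In that comparison 9 of the 16 were below 0.05 before adjustment. DESeq2 called 7, beside 2677 of the 16523 genes tested. Of the 7, Dld, Dlat, Lipt2, Mpc2, Pdhb and Pdk1 were higher and Pdpr lower in Tac111. The median log2 fold change of that list was 0.24 in Tac111 against Tac146, where Pdhx had a log2 ratio of 0.41 and the muscle markers took 2.88 to 3.09% and 1.76 to 2.73% of counts, whose part was not tested. Of 6 Gla protein and vitamin K genes, Prrg3 was lower in Tac111 than in B6 (log2 fold change -0.67, edgeR adjusted p = 0.0456, alternatives 0.00461 to 0.165) and Vkorc1l1 lower than in Tac146 (log2 fold change -0.25, edgeR adjusted p = 0.0496, alternatives 0.0113 to 0.237). Prrg3 lost the call in 10 of 16 alternatives and Vkorc1l1 in 13, most of them a single library left out.

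**Figure D4:**
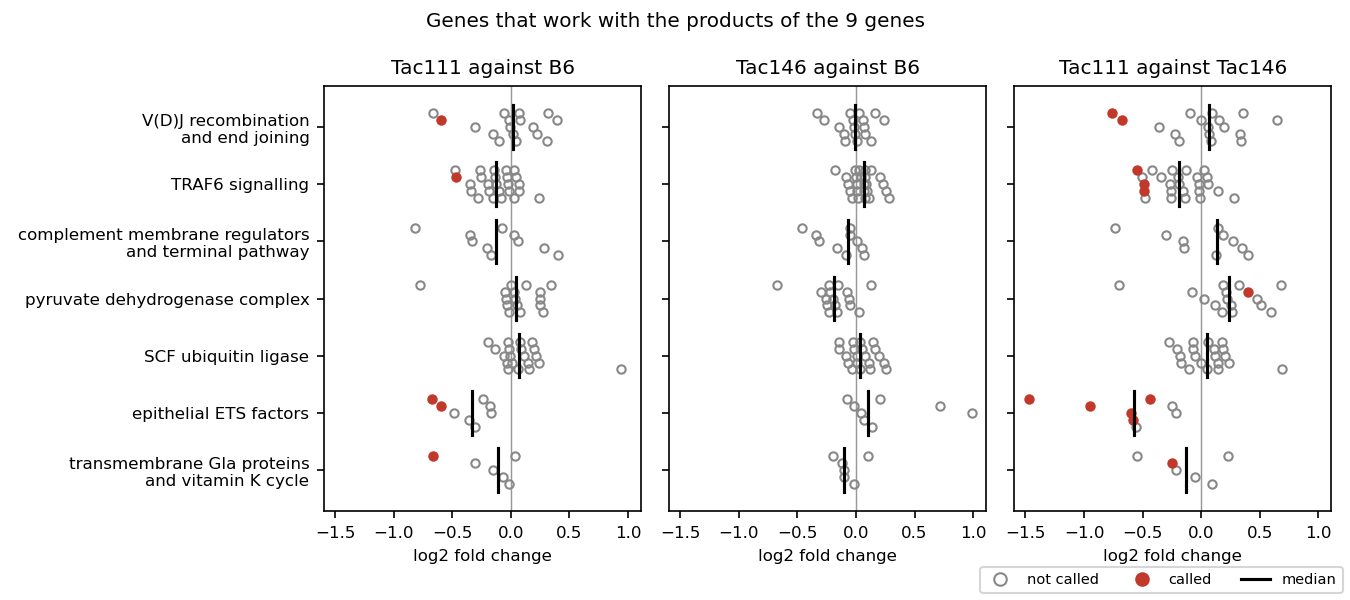
Log2 fold change of each tested gene in the 7 lists of genes that work with the products of the 9 genes or belong to their families, 1 panel per comparison. Filled red points were called by edgeR (adjusted p below 0.05), open points were not, and black bars are list medians. Most called points lie below 0 in the panels with Tac111, and the panel of Tac146 against B6 has none.

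Across the genome, the genes whose pattern over the 9 libraries was most like each of the 9 were found by the root mean square difference of centred log2(CPM + 0.1), among 14520 tested genes whose mean reached 1 CPM in at least 1 strain. Nearest to Rag2 were Opn1mw on chromosome X (difference 0.24), Agmat on chromosome 4 (0.35) and Gm12663 on chromosome 11 (0.46). Opn1mw had 0 CPM in B6 and Tac146 and 1.28 ± 0.303 in Tac111 (SD, n = 3). Nearest to Rag1 were Gm17167 (0.33), Gm13301 (0.40) and Gm10600 (0.47), all on chromosome 4. Around its own mean, Rag2 varied by 2.01 and Rag1 by 1.79 on the same scale.

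Cd59a was the gene most like Cd59b (0.29), followed by H2-T24 (0.45) and Ifi27l2a (0.46), but was not among the nearest 3 with a pseudocount of 1. Among the genes that reached 1 CPM, Cd59a itself was nearest to Ifi27l2a (0.29), then Cd4 (0.37) and H2-T24 (0.40). Cd59b, with a highest strain mean of 0.783 CPM in B6, was below that limit and could not be listed for Cd59a, although the genes differed by only 0.29. Ifi27l2a stood at 60.9 ± 12.6, 18.5 ± 3.58 and 22.0 ± 3.01 CPM in B6, Tac111 and Tac146 (SD, n = 3). Prrg4 was nearest to Fos (0.23), an immediate early gene, then Lgals3bp (0.30) and Tnfsf10 (0.31). Fos had 30.8, 29.5 and 42.6 CPM in B6, 15.8, 11.2 and 7.68 in Tac111, and 16.8, 25.1 and 24.5 in Tac146, and so was highest in B6 replicate 3 and lowest in Tac111 replicate 3, as Prrg4 was. For Traf6 the nearest were Fnbp1 (0.05), Fam102a (0.05) and Smap2 (0.05), and for Pdhx Gstk1 (0.04), Mrps9 (0.04) and Mrpl28 (0.06). Elf5 was nearest to Gm3636 (0.09), Mterf1a (0.13) and Jmjd7 (0.14), and Fbxo3 to Cep85 (0.08), Mypop (0.09) and Swap70 (0.09). Apart from Cd59a beside Cd59b, none of these genes lies within 5 Mb of the Rag pair.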

How the data were processed

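Bulk RNA of labial mucosa was measured in 9 libraries, and per the labels' protocols the kit selects polyadenylated RNA and keeps its strand. What the authors deposited are expected counts (estimates that need not be whole) by gene symbol. The submitters' processing notes name STAR, RSEM and GRCm38, with versions, annotation and strand setting not given in the sources used here. Symbols on several lines, 107 in all, were summed. Positions and exon lengths were looked up by symbol in GENCODE's GRCm38 annotation, and promoters were taken from RefSeq (GRCm38.p6), which matched 8 of 9 genes.

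Expected counts were rounded and fitted with the quasi-likelihood test of edgeR 4.0.16 in R 4.3.3, with TMM factors and edgeR's expression filter, in 1 model of strain over the 9 libraries (6 residual degrees of freedom). Benjamini-Hochberg adjustment ran over 16523 genes per comparison, and a call is an adjusted p below 0.05. CPM use TMM-scaled library sizes, and log2 ratios of the 9 genes in the text are of mean CPM. The SE was derived from the F statistic and is approximate. For groups at 0, the floor is 3 counts over the group, and it and the exact 95% intervals cover counting error only. The labels do not say that libraries come from separate animals, so p-values reflect only how these samples vary, which may be technical.

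The 9 genes, the lists, the tests and the naming rule were chosen with earlier results of these data known. The rule named the 9 genes, the 4 nearest tested genes on each side and genes overlapping them, up to 10 other called genes of the 5 Mb window, the nearest called gene outside it on each side, up to 4 called genes of each list by adjusted p, and the 3 genes most like each of the 9. Genes called by DESeq2 alone, Ehf, Elf1, Creb3l1 and the uncalled joining subunits were named after their values were seen. Alternatives were DESeq2 1.42.0, other scaling factors and filters, a block for replicate number, fits to the 6 libraries compared, windows of 2.5 and 10 Mb, a pseudocount of 1 and each library left out. The fit was first tested on simulated counts. Tables, alignments and figures used Python 3.11.15, pandas 2.3.3, SciPy 1.17.1, Biopython 1.88 and matplotlib 3.10.9.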

Additional observations from a re-analysis of the deposited data

How the results depend on the processing

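The number of genes called over the genome was 630 in Tac111 against B6 (1020 with no filter on low counts, 1213 by DESeq2, 295 to 958 with 1 library left out). It was 50 in Tac146 against B6 (129 with no filter, 136 by DESeq2, 26 with only the 6 libraries, 33 to 64 with 1 left out) and 1469 in Tac111 against Tac146 (2677 by DESeq2, 641 with only the 6 libraries, 470 to 1829 with 1 left out). Other genes of the window called were 1 in Tac111 against B6 (3 with no filter, 5 by DESeq2, 3 with only the 6 libraries, 3 within 10 Mb, 0 to 2 with 1 library left out). They were 0 in Tac111 against Tac146 (2 with no filter, 4 by DESeq2, 3 within 10 Mb, which were Ano3, Creb3l1 and Slc35c1, 0 to 2 with 1 left out). In Tac146 against B6 they were 0 under every alternative taken singly, while DESeq2 within 10 Mb called 1. Related genes called were 5 in Tac111 against B6 (8 with no filter, 9 by DESeq2, 1 to 7 with 1 left out), 0 in Tac146 against B6 (1 by DESeq2, 0 with 1 left out) and 12 in Tac111 against Tac146 (20 with no filter, 23 by DESeq2, 6 with only the 6 libraries, 3 to 15 with 1 left out). The causes of these differences were not tested, beyond the smaller number of libraries where some were left out.

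Whether replicate numbers shared between strains pair the samples is not settled. Same-numbered libraries had correlations of their deviations from the strain mean of -0.0893, 0.0113 and 0.0153 in Tac111 against B6. The values were 0.0490 and 0.0825 in Tac146 against B6, and -0.0684 and 0.206 in Tac111 against Tac146. Differently numbered libraries ran from -0.288 to 0.228. Deviations from a mean of 3 libraries sum to 0 within a strain, so these few values can neither show nor exclude pairing. With the replicate number as a block, 632 genes were called in Tac111 against Tac146, 2 window genes in Tac111 against B6 and 2 related genes in Tac111 against Tac146, Polm and Spdef. Against Tac146 the block thus lost the calls of Elf4 (edgeR adjusted p = 0.0515), Elf3, Ets1, Elf1, Irak2, Myd88, Tnfaip3, Atm, Dld and Vkorc1l1 given in the report. Scaling by other factors moved the median of all genes by less than 0.1 on the log2 scale and no ratio of the 9 genes changed sign by it. With libraries left out, the log2 ratio of Rag1 in Tac111 to B6 ranged from -1.05 to 1.81, that of Fbxo3 in Tac111 to Tac146 from -0.05 to 0.07 and that of Pdhx in Tac146 to B6 from -0.12 to 0.05, so these have no settled sign. Depth limits Rag1, Rag2 and Cd59b, where single libraries hold 0 to 75 counts. With a pseudocount of 1, the 3 most alike genes kept 1 of 3 for Elf5, Fbxo3, Cd59b and Cd59a, and 2 or 3 for the others.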
